A study of Mus musculus with 23 samples.

Results

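Collagen genes were taken as every row of the 6 RNA-seq tables whose gene name reads Col, a number, a and a second number. This gave 44 genes of the 23369 gene names, each held in 1 row. The cells were mouse embryonic stem cells (ESCs) homozygous for a floxed Kdm2b allele (Kdm2b fl/fl), in which the exon encoding most of the ZF-CxxC DNA-binding domain can be removed, and all of them carried a tamoxifen-inducible Cre (ERT2Cre) at Rosa26. 3 samples were labelled untreated and 3 were labelled as treated with tamoxifen at 800 nM for 72 hr. The cells came from 1 ESC line, were maintained on inactivated mouse embryonic fibroblast feeders in serum and LIF, and were left to settle overnight without feeders before treatment. The comparison asks which collagen transcripts differed once tamoxifen had been given to delete the KDM2B DNA-binding domain, and how that difference compares with the one between replicate numbers.

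Collagens are extracellular proteins built from 3 chains wound around each other, with glycine recurring at regular positions along each chain. Fibrillar chains such as those of types I, III and V form the tensile fibres of connective tissue and are the main secreted product of fibroblasts. Type IV chains form the sheet-like network of basement membranes, together with laminin, nidogen and perlecan, and are laid down early in the mouse embryo, above all by parietal endoderm.

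The structural difference between both classes is visible in their coding sequences. In the longest coding sequence of each gene (GENCODE M1), the fibrillar chains Col1a1, Col1a2, Col2a1, Col3a1, Col5a1, Col5a2, Col5a3, Col11a1 and Col11a2 held 337 to 344 triplets in their longest run in which each triplet of codons began with one for glycine. The longest run was 216 triplets in Col24a1 and 217 in Col27a1. In the 6 Col4a chains the longest run held 39 to 66 triplets, and their 427 to 451 triplets were broken into 22 to 27 runs of at least 5.

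Col4a1 and Col4a2 lie head to head, and their start regions are printed because these chains gave the largest labelled difference among the abundant collagens. In the mm9 coordinates of the deposited tables Col4a1 covers chr8:11198423-11312826 and Col4a2 covers chr8:11312829-11449287, so that the locus of Col4a2 begins 3 bases from the end of Col4a1. The start windows come from RefSeq on GRCm38.p6, each 300 bases long, with 250 bases before and 50 from the start onwards. The Col4a1 window is chr8:11312777-11313076 on the minus strand and the Col4a2 window is chr8:11312555-11312854 on the plus strand. They share 78 bases, and their annotated starts lie 21 bases apart. The Col1a2 window, chr6:4505368-4505667 on the plus strand, is shown beside them as the start of an abundant fibrillar chain. Capitals mark CCAAT and GGGCGG on either strand, read as ATTGG and CCGCCC where they lie on the other strand.
Col4a1: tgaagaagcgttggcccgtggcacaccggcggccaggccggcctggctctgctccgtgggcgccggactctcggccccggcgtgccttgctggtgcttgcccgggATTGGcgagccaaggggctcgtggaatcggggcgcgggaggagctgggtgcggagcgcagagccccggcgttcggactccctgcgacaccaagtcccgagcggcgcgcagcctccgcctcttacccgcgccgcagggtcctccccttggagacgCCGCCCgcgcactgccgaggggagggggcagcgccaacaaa
Col4a2: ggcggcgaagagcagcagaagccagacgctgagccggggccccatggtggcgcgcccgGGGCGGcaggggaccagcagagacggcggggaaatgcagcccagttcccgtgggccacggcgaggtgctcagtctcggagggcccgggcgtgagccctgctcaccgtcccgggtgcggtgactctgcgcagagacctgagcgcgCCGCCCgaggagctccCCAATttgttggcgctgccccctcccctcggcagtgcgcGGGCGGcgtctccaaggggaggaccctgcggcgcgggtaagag
Col1a2: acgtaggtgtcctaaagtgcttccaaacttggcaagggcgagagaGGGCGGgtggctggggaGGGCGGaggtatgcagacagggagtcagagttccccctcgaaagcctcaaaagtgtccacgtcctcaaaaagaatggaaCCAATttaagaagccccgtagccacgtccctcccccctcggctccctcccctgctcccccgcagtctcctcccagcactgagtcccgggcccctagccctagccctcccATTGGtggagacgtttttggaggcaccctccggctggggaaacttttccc

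The Col4a1 window had a GC content of 74.0% and a CpG observed/expected ratio of 0.902, and the Col4a2 window had 73.7% and 0.818. The Col1a2 window had 61.0% and 0.47. The window of Col3a1, a fibrillar chain, had 37.7% GC, no CpG and a TATAAA match. Windows were found for 35 of the 44 genes, 38 windows in all. Of these, 11 were CpG-rich (28.9%, with a ratio of at least 0.6 and at least 55% GC), against 30.3% of all 32851 windows. TATAAA occurred on either strand in 5 of the 38 windows, CCAAT in 13 and GGGCGG in 23. The shares of all windows were 13.6%, 37.4% and 35.7%. No window was available for Col1a1, Col2a1, Col4a3, Col5a2, Col9a3, Col12a1, Col14a1, Col22a1 and Col26a1.

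Levels are given as FPKM, the number of fragments scaled to transcript length and sequencing depth that was deposited for each sample. Of the 44 collagens, 22 passed the minimum of 0.5 FPKM in at least 3 samples and were tested, within 12997 genes tested in all. A gene was called when its adjusted p was below 0.05 in limma on log2(FPKM + 0.1), which understates the change of low genes. In all 6 samples the file name assigns the group opposite to the one in the sample label. Groups follow the labels here, and if the file names were right each labelled difference below would have the other sign, at the same size and p. Kdm2b itself was 27.0, 21.6 and 27.7 FPKM in untreated replicates 1 to 3 and 19.9, 21.9 and 25.0 FPKM in tamoxifen replicates 1 to 3, and since a level for the whole gene does not resolve the floxed exon, it does not check the labels. Samples of the same number stood together: 62.8% of all genes tested differed between replicate numbers. Loci under 300 bp held 23.9% to 67.7% of a sample's summed FPKM, most of all in both replicate 2 samples.

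Col18a1, the basement membrane proteoglycan chain from which endostatin is cut, was the most abundant collagen transcript, with a mean of 97.4 FPKM over the 6 samples. It ran from 70.5 to 141 FPKM and made up 30.4% to 47.0% of the summed collagen FPKM of a sample. The basement membrane chain Col4a1 (mean 29.3 FPKM) and the fibrillar chain Col1a1 (29.0 FPKM) came next. They were followed by Col1a2 (21.9 FPKM), Col4a2 (19.0 FPKM) and Col9a2 (10.96 FPKM), a chain of the type IX collagen that decorates cartilage fibrils. These 6 genes together held 82.6% to 86.7% of the collagen FPKM in each sample. Only Col18a1 stood clear of the next chain in every sample, and the ranges of all other neighbours in this order overlapped.

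**Figure D1:**
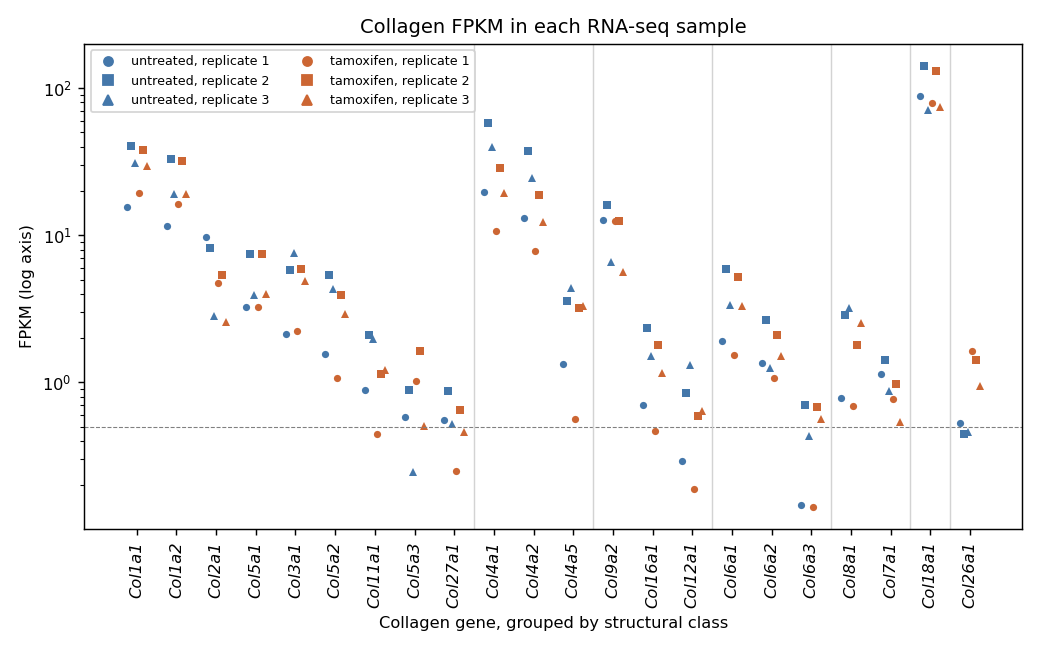
FPKM on a log axis for the 22 collagen genes tested, grouped by structural class, with 1 point for each of the 6 samples (colour for the sample label, symbol for the replicate number, dashed line at 0.5 FPKM). Col18a1 is highest at 70.5 to 141 FPKM, and the replicate 1 samples (circles) are lowest for many chains, with Col1a1 at 15.6 and 19.3 FPKM.

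The type IV chains of the ubiquitous basement membrane network were lower in the tamoxifen samples by about the same factor in each replicate number. Col4a1 was 19.8, 57.6 and 39.6 FPKM in untreated replicates 1, 2 and 3. In the tamoxifen samples it was 10.7, 28.5 and 19.5 FPKM. Within each number the tamoxifen sample was the lower, at 53.8%, 49.5% and 49.3% of its untreated counterpart. The groups overlapped because untreated replicate 1 (19.8 FPKM) lay below tamoxifen replicate 2 (28.5 FPKM). Col4a2, which encodes the chain that assembles with that of Col4a1, was 13.0, 37.5 and 24.6 FPKM in untreated samples and 7.76, 18.8 and 12.3 FPKM in tamoxifen samples. It showed the same order of samples, with tamoxifen at 59.5%, 50.2% and 50.2% of untreated.

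Without the replicate number in the model, neither difference passed the adjusted test. The log2 difference (tamoxifen minus untreated) was -0.97 ± 0.45 (SE, n = 3 per group) for Col4a1 and -0.91 ± 0.43 for Col4a2, both with an adjusted p of 0.999 (limma, Benjamini-Hochberg over all genes tested). Once replicate number entered as a block, the SE dropped to 0.093 and 0.10, and the adjusted p was 0.00334 for Col4a1 and 0.00453 for Col4a2. Without a block, limma called none of the 22 collagens, against a background of 0.0231% of all genes called higher and 0.00769% lower. At an unadjusted p under 0.05, 1 collagen passed (Col26a1), against 4.79% of all genes. With the block 3 collagens were called lower (Col4a1, Col4a2 and Col11a1) against a background of 6.06%, and 1 higher (Col26a1) against 4.33%. Leaving out both replicate 2 samples left Col4a1 as the only collagen called with the block. Leaving out number 1 added Col5a2, and leaving out number 3 added Col2a1 and lost Col11a1. In bulk RNA, fewer cells of a type and less RNA per cell cannot be told apart, here or in the results that follow.

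Col4a5, an X-linked type IV chain of specialised basement membranes, was 1.33, 3.59 and 4.38 FPKM in untreated samples and 0.563, 3.20 and 3.32 FPKM in tamoxifen samples. The tamoxifen sample was lower in each number while the groups overlapped, and its log2 difference of -0.55 ± 0.20 (SE with the block) had an adjusted p of 0.124 (limma). The other chains of the family, Col4a3, Col4a4 and Col4a6, reached at most 0.022, 0.0152 and 0.268 FPKM and were not tested.

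**Figure D2:**
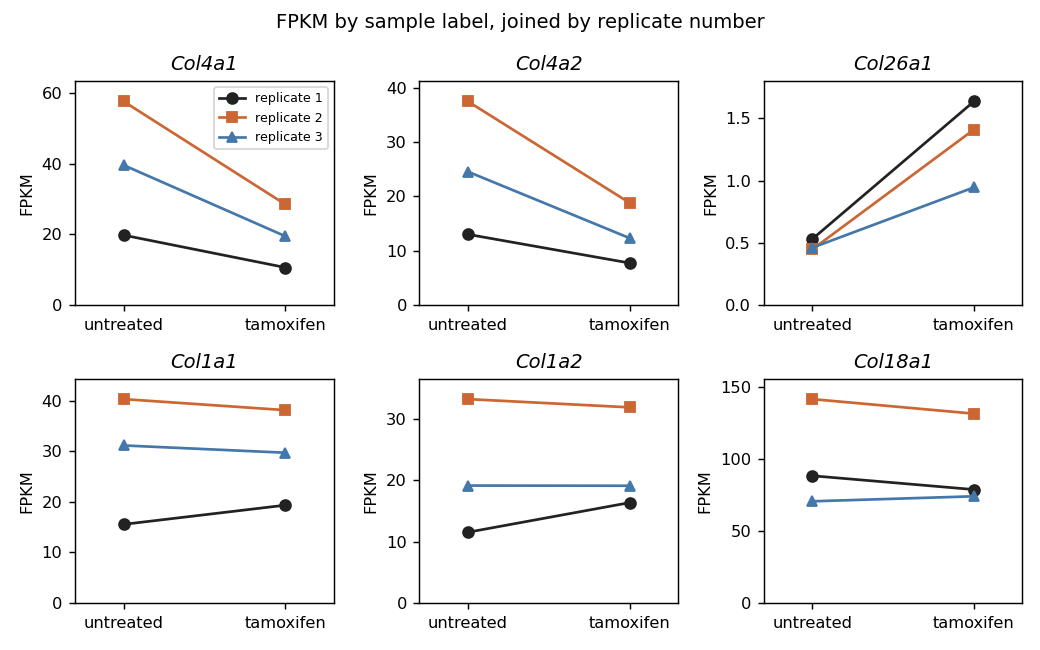
FPKM of 6 collagen genes in untreated and tamoxifen samples, each line joining the samples of 1 replicate number. Col4a1 and Col4a2 fall along every line, Col26a1 rises along every line, and the lines of Col1a1, Col1a2 and Col18a1 are nearly level or move either way (Col1a1 at 124%, 94.6% and 95.4% of untreated).

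Type I collagen, the most abundant fibrillar type here, gave no call for the label. Col1a1 was 15.6, 40.3 and 31.2 FPKM in untreated samples and 19.3, 38.2 and 29.7 FPKM in tamoxifen samples, and Col1a2 was 11.5, 33.2 and 19.1 against 16.3, 31.9 and 19.1 FPKM. For both chains the tamoxifen sample was higher in replicate number 1 and level or slightly lower in the others. The log2 differences were 0.05 ± 0.11 for Col1a1 and 0.15 ± 0.13 for Col1a2 (SE with the block), with adjusted p of 0.771 and 0.479 (limma). Col3a1, which forms fibrils with type I in skin and vessels, and Col5a1, which starts fibril assembly, gave -0.18 ± 0.16 and 0.01 ± 0.12. Neither passed the test, with adjusted p of 0.493 and 0.981 with the block (limma).

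The other fibrillar chains tested differed more between the labels. Col11a1, a chain that limits the width of cartilage fibrils, was 0.882, 2.09 and 1.98 FPKM in untreated samples and 0.448, 1.14 and 1.21 FPKM in tamoxifen samples. It was lower in each number (50.8%, 54.4% and 61.3% of untreated), with overlapping groups. Its log2 difference of -0.78 had an SE of 0.18 and an adjusted p of 0.0385 with the block, and an SE of 0.47 and an adjusted p of 0.999 without it (limma). Col5a2, the partner chain of Col5a1, was 1.55, 5.37 and 4.30 FPKM in untreated samples and 1.07, 3.90 and 2.92 FPKM in tamoxifen samples. It lay just outside the threshold with the block, at -0.50 ± 0.14 and an adjusted p of 0.0582 (limma). Col2a1, the main cartilage collagen, was 9.73, 8.24 and 2.81 against 4.71, 5.37 and 2.57 FPKM, also lower in each number but with an adjusted p of 0.075 with the block (limma). Col5a3 ran the other way within each number, at 177%, 184% and 207% of untreated, with a mean of 0.814 FPKM and an adjusted p of 0.0595 with the block (limma).

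Over the 9 fibrillar chains tested the median log2 difference was -0.18, and over the 3 Col4a chains it was -0.91, beside -0.29 over all 22 collagens and -0.02 over all genes tested. The tamoxifen sample was the lower in all 3 replicate numbers for 13 of the 22 collagens, against 28.2% of all genes, and the higher in all 3 for 2 (Col5a3 and Col26a1), against 24.8%. In 1 collagen, Col26a1, the groups did not overlap, with tamoxifen higher. This compares with 3.09% of all genes that were higher without overlap and 5.4% that were lower.

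Ratios within a sample do not depend on how that sample was scaled. The summed FPKM of the 11 fibrillar chains was 45.8, 105 and 71.7 in untreated samples and 48.7, 96.2 and 65.5 in tamoxifen samples, and that of the 6 Col4a chains was 34.3, 98.8 and 68.8 against 19.1, 50.7 and 35.3. The ratio of Col4a to fibrillar FPKM was 0.747, 0.945 and 0.959 in untreated samples and 0.392, 0.527 and 0.539 in tamoxifen samples, so that every tamoxifen sample lay below every untreated sample. The ratio of Col4a1 to Col1a1, chosen after the values had been seen and so given without a test, was 1.32 ± 0.0901 (SD, n = 3) and 0.651 ± 0.0979. Within type IV the ratio of Col4a1 to Col4a2 stayed between 1.37 and 1.61, and within type I that of Col1a1 to Col1a2 between 1.18 and 1.63.

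**Figure D3:**
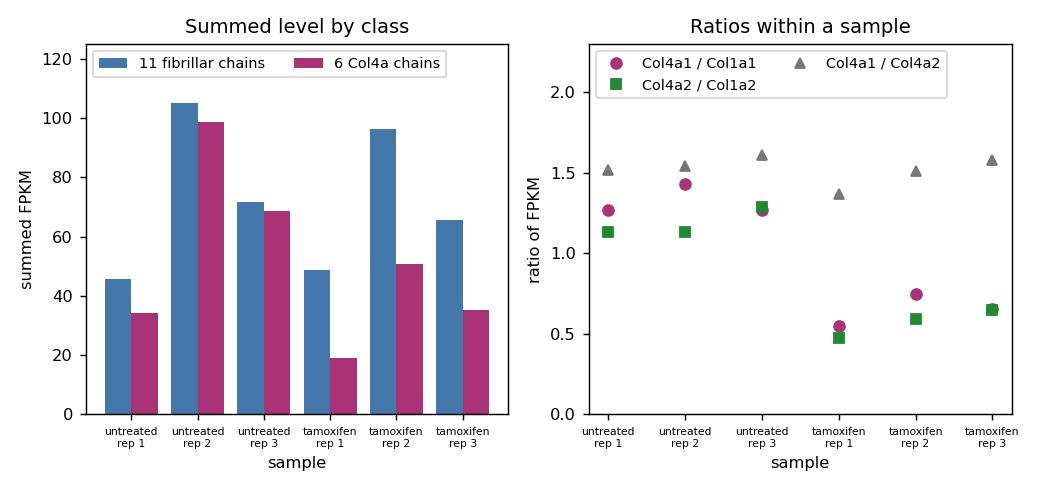
Left, summed FPKM of the 11 fibrillar and the 6 Col4a chains in each sample (bars from 0). Right, ratios of FPKM within each sample: Col4a1 over Col1a1 runs from 1.27 to 1.43 in untreated and from 0.551 to 0.746 in tamoxifen samples, while Col4a1 over Col4a2 stays at 1.37 to 1.61.

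The collagen that differed most between labels was a scarce one. Col26a1, a chain first described in testis and ovary, was 0.531, 0.448 and 0.462 FPKM in untreated samples and 1.64, 1.41 and 0.946 FPKM in tamoxifen samples. All tamoxifen samples lay above all untreated samples, at 309%, 315% and 205% of untreated. Among the untreated samples only replicate 1 reached the minimum of 0.5 FPKM. The gene was therefore tested only because its tamoxifen samples were high, which limits what its call and its lack of overlap can show. The intervals deposited with the values were 0.355 to 0.696 FPKM in untreated replicate 1 and 1.26 to 2.00 FPKM in tamoxifen replicate 1, and in replicate number 3 they lay nearly end to end, at 0.284 to 0.639 and 0.642 to 1.24 FPKM. The log2 difference was 1.27 ± 0.33 without the block (adjusted p = 0.467) and ± 0.23 with it (adjusted p = 0.0170, limma).

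Among the remaining classes no chain was called for the label. Col18a1 was 88.3, 141 and 70.5 FPKM in untreated samples and 78.7, 131 and 74.0 FPKM in tamoxifen samples, a log2 difference of -0.07 ± 0.09 (adjusted p = 0.659 with the block, limma). Its levels overlapped between the labels. Col9a2 was 12.6, 16.1 and 6.53 against 12.4, 12.4 and 5.59 FPKM. Col16a1, which like type IX attaches to other fibrils, was 0.701, 2.32 and 1.52 against 0.466, 1.79 and 1.16 FPKM. In both, each tamoxifen sample was at or below its untreated counterpart, with adjusted p of 0.267 and 0.179 with the block (limma). Col6a1 and Col6a2, chains of the beaded filaments of type VI, had means of 3.53 and 1.65 FPKM, and Col8a1, of the hexagonal network beneath endothelium, had 1.98 FPKM. Their log2 differences were -0.16, -0.13 and -0.38, with adjusted p of 0.470, 0.681 and 0.196 with the block (limma).

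More collagens were called for replicate number than for the label. The moderated F test over the 3 numbers, with the label in the model, called 19 of the 22 collagens, against 62.8% of all genes tested. Col7a1, Col26a1 and Col27a1 were not called. Col4a1 averaged 15.2, 43.0 and 29.5 FPKM over the samples of numbers 1, 2 and 3, and Col1a1 averaged 17.4, 39.2 and 30.4 FPKM. Number 1 was lowest and number 2 highest for both genes, whichever the label.

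Against number 1, number 2 was higher for 16 of 22 collagens (background 22.3%) and lower for none by limma, adjusted or not (0 at an unadjusted p under 0.05, background 26.7%). The log2 difference was 1.47 ± 0.11 (SE) for Col4a1, 1.17 ± 0.14 for Col1a1 and 1.64 ± 0.17 for Col6a1, with adjusted p of 8.08e-04, 0.00136 and 0.00118 (limma). Number 3 was higher than number 1 for 13 collagens (background 20.7%) and lower for 3, Col2a1, Col5a3 and Col9a2 (background 22.2%). The log2 differences of these 3 were -1.31, -0.93 and -1.04, while Col11a1 was among those called higher, at 1.17. Number 3 was lower than number 2 for 9 (background 13.6%) and higher for none by limma (0 also at an unadjusted p under 0.05, background 10.9%). That count fell to 0 without untreated replicate 2, to 2 without untreated replicate 3 or tamoxifen replicate 2, and to 5 without tamoxifen replicate 3.

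Over the 22 collagens the median log2 difference was 1.21 for number 2 against 1, 0.80 for 3 against 1 and -0.56 for 3 against 2, beside -0.05, -0.03 and 0.09 over all genes. Both replicate 1 samples lay below the other 4 samples for 12 collagens, against 19.8% of all genes. When every sample was scaled to the same FPKM sum (TPM), the median of all genes moved to -0.80, -0.33 and 0.53. Relative to that median the collagens differed by 1.28, 0.82 and -0.69. Scaling shifts all genes of a sample almost alike, so these values could hardly move. The F test called 12 collagens under TPM, with 8 higher and 1 lower (Col2a1) for number 2 against 1. Number 3 gave 6 higher against number 1 and 3 lower against number 2 (Col2a1, Col5a3 and Col9a2). Without the filter on low values, no collagen was called for replicate number by limma (21 of 44 at an unadjusted p under 0.05 in the F test).

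**Figure D4:**
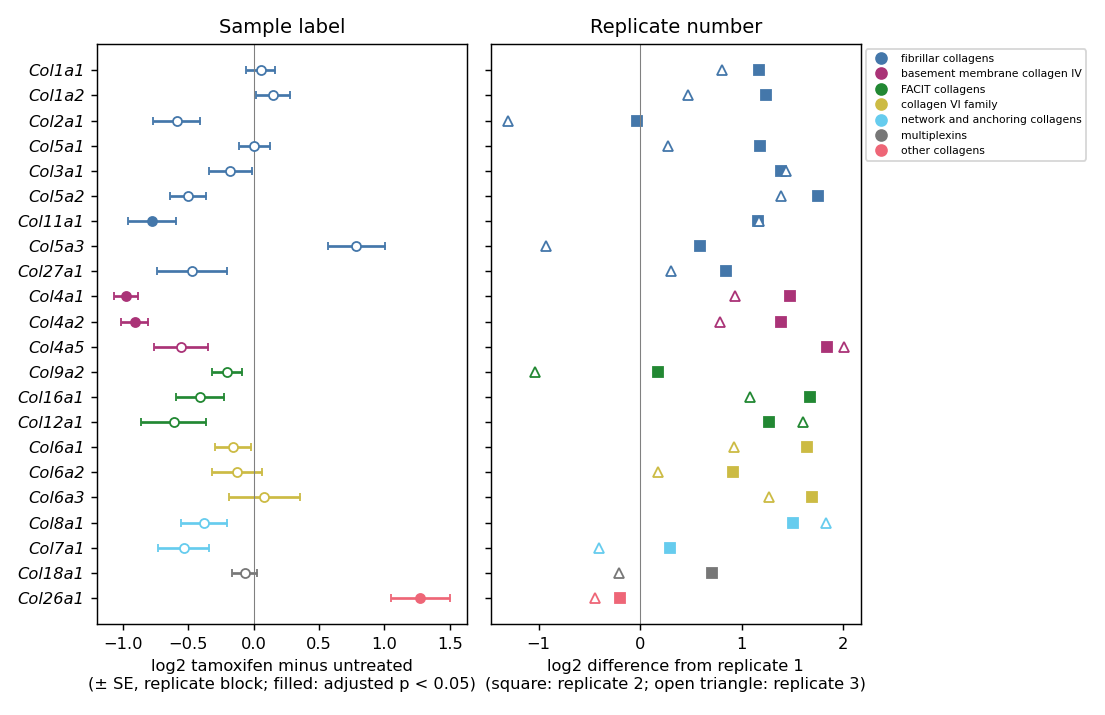
Left, log2 difference of tamoxifen minus untreated for the 22 collagens tested, with SE from the fit with the replicate block (filled points have an adjusted p below 0.05). Right, log2 difference of replicate 2 (squares) and replicate 3 (open triangles) from replicate 1, as in Col4a1 at 1.47 and 0.93. Colours give the structural class. Most squares and triangles lie to the right of 0.

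Enzymes and partners that handle collagen chains were read from lists by role. Of the 16 tested genes for chain modification and folding, 3 were called lower with the block (background 6.06%) and none higher (1 at an unadjusted p under 0.05, limma, background 4.33%). Without the block, limma called none of the 85 partner and marker genes tested (background 0.0231% higher and 0.00769% lower). At an unadjusted p under 0.05 by limma, 1 was higher and 7 were lower, against 4.79% of all genes in both directions together. Plod2, a lysyl hydroxylase, was 25.0, 49.9 and 38.3 FPKM in untreated samples and 13.6, 27.2 and 21.3 FPKM in tamoxifen samples, lower in each number by about as much as Col4a1 (-0.86 ± 0.09, adjusted p = 0.00393 with the block, limma). Glt25d1, a collagen galactosyltransferase, and Creb3l1, a transcription factor of secretory cells, were the others. P4hb, Ppib and the collagen chaperone Serpinh1, the most abundant genes of the list, were not called, with log2 differences of -0.20, 0.07 and -0.12. Of 11 genes for procollagen processing and crosslinking 3 were called lower against the same 6.06%, the procollagen C-proteinases Bmp1 (-0.66) and Tll1 (-1.62) and their enhancer Pcolce (-0.49). The median log2 difference was -0.22 over the first list and -0.40 over the second.

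Among the other components of basement membranes, 6 of 12 genes tested were called lower with the block (background 6.06%) and none higher (1 at an unadjusted p under 0.05, limma, background 4.33%), with a median log2 difference of -0.39. They included the laminin chains Lama1 (-0.66 ± 0.13), Lama5 (-0.75 ± 0.19) and Lamb1 (-0.52 ± 0.11), and Nid1 (-0.56 ± 0.11), which links laminin to type IV collagen. Lamb1 was 37.3, 60.1 and 37.7 FPKM in untreated samples and 22.4, 41.4 and 30.6 FPKM in tamoxifen samples. Agrn, Nid2 and Lamc1, 3 of the most abundant genes of the list, were not called, at -0.27, 0.16 and -0.04. The same background of lower calls holds for the lists that follow. Of 12 partners of fibrils 3 were called lower, Thbs1 (-0.81), Tnc (-0.55) and Fbln2 (-0.43), while Sparc (-0.14) and Fn1 (0.03) were not. Of 5 collagen receptors 2 were called lower, the discoidin receptor Ddr1 (-0.79 ± 0.10, adjusted p = 0.00689 with the block, limma) and the integrin chain Itgb1 (-0.40). Of 4 proteases 1 was, the membrane-bound Mmp14 (-0.76), while Mmp2 (0.12), the next in abundance, was not.

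Markers of other cell types were set beside the collagens. Of 7 tested markers of primitive and parietal endoderm 4 were called lower with the block (background 6.06%), the transcription factors Gata4 (-0.85 ± 0.20) and Gata6 (-1.43 ± 0.26) and the laminin chains Lama1 and Lamb1 named above. The other 3, Sparc, Dab2 and Thbd, were not called, at -0.14, 0.23 and 0.21. Gata6 was 1.06, 0.581 and 1.74 FPKM in untreated samples and 0.311, 0.239 and 0.433 FPKM in tamoxifen samples, with no overlap. It passed the minimum of 0.5 FPKM through its untreated samples alone. The filter thus favoured a lower call for Gata6, which limits its weight in the count above. The endoderm list of 12 summed to 297 to 524 FPKM in untreated and 302 to 413 FPKM in tamoxifen samples, mostly Sparc, and 5 of its genes (Sox7, Sox17, Foxa2, Afp and Ttr) stayed under 0.5 FPKM in all 6, with Ttr listed at 0 throughout. The 4 called markers were lower together with Col4a1 and Col4a2 in the tamoxifen samples. Over replicate numbers they split. For number 2 against 1, Lama1 (0.81) and Lamb1 (0.78) were called higher (background 22.3%), as were Col4a1 (1.47) and Col4a2 (1.39). Gata4 (-0.54) and Gata6 (-0.52) were lower without a call. The part of these markers in the Col4a1 and Col4a2 difference was not tested.

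Of 18 tested fibroblast markers other than collagens, 12 were called for replicate number, against 62.8% of all genes. Their medians were 1.03 for number 2 against 1 and 0.97 for 3 against 1, and in 9 both replicate 1 samples lay below the other 4, against 19.8% of all genes. Others ran the other way, with Cnn1 called lower in number 2 than in number 1 (-0.94) and Tagln and Acta2 at -0.59 and -0.26 without a call. The list of 20, of which 8 stand in another list too, summed to 209, 363 and 457 FPKM in untreated samples and 278, 285 and 332 FPKM in tamoxifen samples. Replicate 1 was lowest in both groups. For the label, 2 of the 18 were called lower with the block (Fbln2 and Twist1, background 6.06%), with a median of -0.05. The most abundant markers, Tagln and S100a4, were not called for it, at -0.10 and -0.36. All 10 ESC markers were tested, and their median was -0.45 for number 2 against 1 and -0.09 for 3 against 1. They did not move together. In number 2 Pou5f1, Sox2, Zfp42, Dppa3 and Utf1 were called lower than in number 1 (background 26.7%). Tdgf1 (0.80) and Fgf4 (0.52) were called higher (background 22.3%). The ESC markers summed to 1576 to 1929 FPKM in untreated and 1728 to 2263 FPKM in tamoxifen samples. For the label, 1 of them, Dppa3, was called higher with the block (1.37 ± 0.10, background 4.33%). The pluripotency factor Pou5f1 was not called, at 0.22. The part of these markers in the collagen differences was not tested.

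The 6 tested collagens of lower level were Col5a3 and Col26a1, described above, Col6a3 (0.143 to 0.700 FPKM), Col7a1 (0.537 to 1.41 FPKM), Col12a1 (0.187 to 1.303 FPKM) and Col27a1 (0.251 to 0.878 FPKM). Apart from Col26a1 none of them was called for the label. Of the 22 collagens that were not tested, 18 stayed under 0.5 FPKM in all 6 samples. Col8a2, Col13a1 and Col22a1 reached 0.524, 0.988 and 0.561 FPKM, and Col9a3 was 2.21 FPKM in untreated replicate 2 and listed at 0 in the other 5. The 18 were Col4a3, Col4a4, Col4a6, Col6a4, Col6a5, Col6a6, Col9a1, Col10a1, Col11a2, Col14a1, Col15a1, Col17a1, Col19a1, Col20a1, Col23a1, Col24a1, Col25a1 and Col28a1. The loci of Col7a1, Col9a3, Col10a1 and Col27a1 overlap another gene (Mir711, Tcfl5, Nt5dc1 and Mir455), so that their values are uncertain where the counting did not use strand.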

How the data were processed

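RNA-seq was analysed for the 3 untreated and 3 tamoxifen samples. The authors aligned polyA+ reads to mm9 with Tophat2 and deposited FPKM values per refGene row, with an interval and a status, from the Cufflinks suite (version 2.1.1 in the submitters' notes). The library was directional and the aligner ran with default settings, and whether the counting used strand was not given in the sources used here. The ChIP-seq samples were not analysed here.

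Rows of 1 gene name were summed, and 6 gene names with a failed status were left out. Genes with at least 0.5 FPKM in 3 of the 6 samples were fitted with limma 3.58.1 (R 4.3.3) on log2(FPKM + 0.1), two-sided, with eBayes and a trend, Benjamini-Hochberg adjustment over 12997 genes and a threshold of 0.05. The label was the only term, and the replicate number was a block in a second fit. The numbers come from the labels. Deviations from group means correlated over genes at 0.544, 0.605 and 0.506 between samples of the same number and at -0.379 to -0.105 otherwise. Taking deviations from group means pushes the latter below 0 once the former are positive. Samples of the same number were taken as pairs, on the same expression values that the fit with the block uses. The labels do not say that replicates were separate cultures, and p-values measure the spread between these samples only. Other steps used Python 3.11.15 and pandas 2.3.3.

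The genes and lists were chosen with earlier results of these data known. Collagens with a mean of at least 1 FPKM were named with values, the other tested ones with a range, and from each list the 2 to 4 most abundant genes and up to 3 called genes by size. Total read numbers cannot be read from FPKM, and single-fragment steps in low genes gave depths of 0.653 to 0.953 relative to untreated replicate 1. The series text gives the tamoxifen dose in another unit than the sample labels. Alternatives covered pseudocounts, scaling, filters, the variance model, duplicate rows, the block and leaving out each sample.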

Additional observations from a re-analysis of the deposited data

How the results depend on the processing

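The sign of the Col4a over fibrillar ratio could not change in the settings run for it. Scaling cancels within a sample, and every tamoxifen sample lay below every untreated sample. For this ratio the log2 of tamoxifen over untreated mean was -0.86, with a range of -0.97 to -0.73 when single samples were left out. The summed Col4a FPKM ran from -1.31 to -0.56 and the summed fibrillar FPKM from -0.38 to 0.26 in the same way. For the label, the replicate block moved the count of collagens called from 0 higher and 0 lower to 1 and 3. The counts were 1 and 2 (Col11a1 no longer called) with the block and quantile normalization, 1 and 4 (Col5a2 added) with the block and TPM without loci under 300 bp, and 1 and 3 with the block and a pseudocount of 1 or 0.01. With the block and 1 replicate number left out they ranged from 0 to 1 higher and from 1 to 4 lower. Without the block all other settings called none. The last 3 block settings, and leaving out numbers under the block, were chosen after seeing the data.

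For replicate number, TPM scaling gave 12 collagens by the F test, 8 higher and 1 lower for number 2 against 1, 6 higher for 3 against 1 and 3 lower for 3 against 2. Requiring 1 FPKM in all 6 samples left fewer genes to test and gave 12 by the F test, 10 higher for 2 against 1 and 7 higher for 3 against 1. Without the label term the counts were 12, 6 higher and 1 lower for 3 against 1, and 0 lower for 3 against 2. Without a filter, all counts for replicate number were 0. That fit held 23363 genes, of which 4520 were listed at 0 in all samples, and called 3 genes in all by limma (7548 at an unadjusted p under 0.05). The cause was not tested in these settings. Leaving out single samples gave 0 to 13 lower for 3 against 2.

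Small label differences changed sign. Under TPM scaling Col18a1 was 0.034, and under TPM without short loci, with or without the block, Col1a1 was -0.033 and Col5a1 -0.081. Leaving out 1 sample without the block gave ranges of -0.34 to 0.35 for Col1a1, -0.23 to 0.53 for Col1a2, -0.71 to 0.24 for Col3a1, -0.34 to 0.36 for Col5a1, -1.02 to 0.025 for Col5a2, -1.06 to 0.23 for Col4a5, -0.33 to 0.21 for Col18a1, -0.58 to 0.18 for Col9a2, -0.84 to 0.074 for Col16a1, -0.55 to 0.30 for Col6a1, -0.36 to 0.20 for Col6a2 and -0.99 to 0.12 for Col8a1. With the block and 1 number left out, Col1a1 ranged from -0.074 to 0.12, Col1a2 from -0.031 to 0.25, Col3a1 from -0.29 to 0.036 and Col5a1 from -0.001 to 0.02. None of these was called, except Col5a2 as given above.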
